A study of Rattus norvegicus with 24 samples.

Results

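The 10 genes described here encode the presynaptic machinery that fills synaptic vesicles with glutamate, docks them and fuses them with the membrane. They were listed by symbol, with earlier results of these data known: Slc17a7, Slc17a6, Syn1, Syn2, Syp, Syt1, Vamp2, Snap25, Stx1a and Cplx1. All 10 were found among the 20318 features of the deposited table, and all 10 were among the 16119 genes tested, those with an average of at least 10 normalised counts.

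RNA from the hippocampus of female rats aged 6 months was sequenced in 24 libraries of 4 groups. SHAM (7 libraries) was sham operated and given vehicle for 7 weeks. OVX (7 libraries) had the ovaries removed and was also given vehicle for 7 weeks. The 2 estradiol (E2) groups had the ovaries removed as well. OVX_E2_Prevention (5 libraries, called Prevention) received E2 for 5 weeks, and OVX_E2_Treatment (5 libraries, called Treatment) received vehicle for 3 weeks followed by E2 for 2 weeks. The labels thus give different total times to the vehicle groups and the E2 groups. They state neither the route nor the dose of E2, nor whether tissue from several animals was pooled. P-values therefore measure the spread between these libraries. Normalised counts summed to 35.4 to 38.8 M (mega) per library, and reads estimated from the smallest step in each library ran from 26.7 to 54.1 M.

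As background, a glutamatergic terminal loads vesicles through a vesicular glutamate transporter. VGLUT1, encoded by Slc17a7, is the main one in the principal neurons of hippocampus and cortex, and VGLUT2, encoded by Slc17a6, is the main one in thalamus and many other subcortical nuclei. Synapsins hold vesicles in a reserve pool. Fusion is driven by the SNARE proteins synaptobrevin (Vamp2) on the vesicle and SNAP-25 and syntaxin-1A on the plasma membrane, while complexin clamps and assists the complex and synaptotagmin-1 triggers it on calcium entry. Axon terminals in the hippocampus that come from other regions carry proteins whose mRNA sits in the distant cell body, so a dissected hippocampus reports the transcripts of its own cells and of any neighbouring tissue taken with it.

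The promoters of the 2 transporter genes are shown because these genes moved in opposite directions across the libraries, as described further on. Sequences are RefSeq's, on the rat build GRCr8, both on the + strand, 5′ to 3′. Capitals mark the GC box, GGGCGG on either strand (CCGCCC when read on the opposite one), and overlapping copies run together. The Slc17a7 stretch, chr1:104785955-104786171, stops where the annotated gene begins and so is 217 bases long. The Slc17a6 stretch, chr1:110348197-110348446, has 250 bases.
Slc17a7: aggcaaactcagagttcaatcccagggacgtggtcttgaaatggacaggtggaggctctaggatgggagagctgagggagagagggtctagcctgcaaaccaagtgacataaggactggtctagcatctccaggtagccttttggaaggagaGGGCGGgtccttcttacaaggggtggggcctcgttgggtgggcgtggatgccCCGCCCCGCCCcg
Slc17a6: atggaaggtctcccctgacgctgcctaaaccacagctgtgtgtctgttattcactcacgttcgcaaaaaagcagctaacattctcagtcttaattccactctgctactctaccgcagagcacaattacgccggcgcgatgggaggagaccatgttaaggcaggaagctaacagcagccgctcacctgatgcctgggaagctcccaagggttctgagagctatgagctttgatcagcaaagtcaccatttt
The Slc17a7 stretch holds 3 GC boxes and the Slc17a6 stretch holds 0. In the 250 bases before the start in the reference table, 7 of the 9 matched members had at least 1 GC box, against 30.5% of 33469 promoters. That start is not always the annotated gene start. The Vamp2 window lay wholly inside the annotated gene, and those of Syt1, Stx1a and Slc17a7 overlapped it. Syn1 and Slc17a6 were the 2 without one, and Snap25 had no match. G and C made up 50.8% of the Slc17a6 window and 61.2% to 69.6% of the other 8, with a median of 51.2% over all promoters. The full estrogen response element, GGTCA and TGACC with any 3 bases between them, was in 0 of 9 windows, against 0.0239% of all promoters. The single site GGTCA was in 1 of 9, that of Syt1, against 35.4%, and the cyclic AMP response element TGACGTCA was in 1 of 9, that of Syn1, against 1.59%. The TATA box letters TATAAA were in 0 of 9, against 12.9%. These matches describe letters in a window and not binding.

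Before the groups are compared, the libraries themselves need a description. Shox2, a transcription factor of thalamic neurons and no gene of the hippocampal principal cells, was at least 100 normalised counts in 7 libraries and between 0 and 40.0 in the other 17. The 7 were SHAM 5, OVX 2, 4 and 6, Prevention 1 and 4, and Treatment 6, so every group held at least 1 of them. Summed over a list of 10 thalamic genes, Shox2 among them, the level was 5892 to 16000 in the 7 libraries and 3069 to 5289 in the rest. This sum is therefore not independent of the division by Shox2. No listed gene was at 0 in all of these libraries. A second division followed a single transcript, LOC257642: it was high in all 5 Prevention libraries, in Treatment 1 and 2 and in no OVX or SHAM library, so Prevention cannot be told apart from it in comparisons with OVX or SHAM. The same 7 libraries had 39.2 to 54.1 M estimated reads against 26.7 to 40.6 M in the other 17, so depth moved with this division too. As a check of the labelled tissue, 10 listed genes of hippocampal principal cells (Prox1, Wfs1, Fibcd1, Rgs14 and others) summed to between 27953 and 51268 in every library. In bulk tissue, fewer cells of a type and less RNA per cell cannot be told apart.

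Slc17a6 was the member whose level varied most. Its normalised counts were 2577, 882, 656, 3614 and 747 in Prevention 1 to 5, and 776, 604, 840, 3078 and 1081 in Treatment 1, 2, 5, 6 and 7. In OVX the lowest, median and highest were 459, 952 and 2650, and in SHAM they were 517, 673 and 4332. The groups overlapped completely, and in each group the high values were those of the libraries with high Shox2. Group means were 1218 ± 1379 in SHAM (SD, n = 7), 1216 ± 781 in OVX (SD, n = 7), 1695 ± 1332 in Prevention (SD, n = 5) and 1276 ± 1022 in Treatment (SD, n = 5). Restricted to libraries with Shox2 under 100, these became 699 ± 141 (SD, n = 6), 720 ± 240 (SD, n = 4), 761 ± 114 (SD, n = 3) and 825 ± 197 (SD, n = 4). The SD within groups of its log2 value was 0.99, at the 98.4th percentile of the tested genes, whose median was 0.151.

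Slc17a7 varied the other way. Counts were 61279, 72854, 73108, 51334 and 72474 in Prevention 1 to 5 and 52736, 74735, 65603, 51497 and 63459 in Treatment 1, 2, 5, 6 and 7. In OVX the lowest, median and highest were 47185, 61831 and 76330, and in SHAM 52798, 67712 and 74183. The libraries with high Shox2 were the lowest of their group in all 4 groups. The mean was 66982 ± 7100 in SHAM (SD, n = 7), 63646 ± 10704 in OVX (SD, n = 7), 66210 ± 9703 in Prevention (SD, n = 5) and 61606 ± 9652 in Treatment (SD, n = 5).

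**Figure D1:**
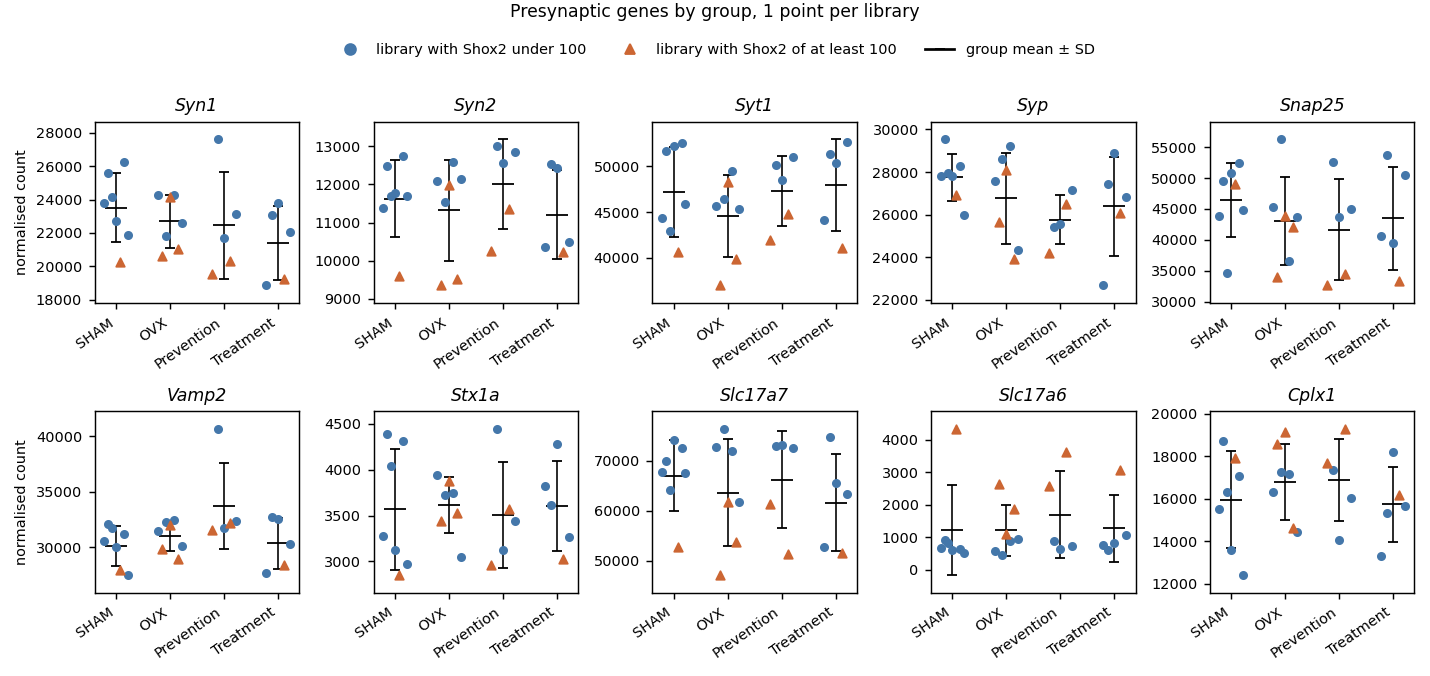
Normalised count (axes not starting at 0) of the 10 genes in each library, by group; triangles are the 7 libraries with Shox2 of at least 100, circles the other 17, bars the group mean ± SD. For Slc17a6 the triangles exceed all circles of their group, for Slc17a7 they are lower than all circles of their group, and for every gene the groups overlap.

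The synapsins and synaptophysin are the abundant proteins of the vesicle surface. Syn1 was 19522, 27593, 21672, 20355 and 23140 in Prevention 1 to 5 and 18869, 23063, 23771, 19249 and 22082 in the Treatment libraries in label order. Its OVX counts ran from 20612 to 24299 (median 22624) and its SHAM counts from 20281 to 26259 (median 23792). Treatment and SHAM overlapped although their means, 21407 ± 2230 (SD, n = 5) and 23520 ± 2087 (SD, n = 7), lay farthest apart among the groups.

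Syn2, the second synapsin, was 10257, 13005, 12569, 11359 and 12856 in Prevention and 10367, 12550, 12427, 10217 and 10490 in Treatment, in the same orders. It ran from 9353 to 12602 in OVX (median 11976) and from 9597 to 12751 in SHAM (median 11693). No group stood apart. Syp, which encodes synaptophysin, the classical marker of vesicle content, had the smallest spread of the 10 genes: its log2 SD within groups was 0.0962, at the 21.9th percentile. Its counts ran from 22685 to 29534 over all libraries, with group means between 25775 ± 1127 in Prevention (SD, n = 5) and 27761 ± 1104 in SHAM (SD, n = 7).

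Syt1, the calcium sensor for fast release, was 41952, 50128, 48499, 44732 and 51061 in Prevention and 44172, 51341, 50395, 41027 and 52602 in Treatment. It ran from 36986 to 49516 in OVX (median 45623) and from 40651 to 52598 in SHAM (median 45889). The lowest library of each group again had high Shox2.

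Of the SNARE genes, Vamp2, the vesicle SNARE, was 31545, 40653, 31743, 32172 and 32321 in Prevention 1 to 5. In the Treatment libraries it was 27689, 32718, 32542, 28379 and 30280, in OVX 28926 to 32451 (median 31457) and in SHAM 27469 to 32055 (median 30516). Prevention 2 stood well above the other 23 libraries, and the other 4 Prevention libraries lay within the range of OVX or Treatment. Snap25, one of the plasma membrane SNAREs, was 32634, 52568, 43658, 34415 and 44999 in Prevention and 40555, 53654, 39528, 33289 and 50441 in Treatment, with 33990 to 56249 in OVX and 34617 to 52374 in SHAM. It spread widely in every group, with a log2 SD within groups of 0.25. Stx1a, which encodes syntaxin-1A, ran from 2851 to 4445 over all libraries, and its group means differed by less than their SDs, from 3507 ± 578 in Prevention (SD, n = 5) to 3615 ± 309 in OVX (SD, n = 7). Cplx1, a complexin, ran from 12401 to 19272, with means from 15730 ± 1764 in Treatment (SD, n = 5) to 16871 ± 1949 in Prevention (SD, n = 5).

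The first comparison asks whether loss of the ovaries changed these transcripts. Between OVX and SHAM 0 of the 10 genes passed an adjusted p of 0.05 (limma, Benjamini-Hochberg over all tested genes), where 0% of all genes passed. At an unadjusted p under 0.05 there were 0 members and 1007 genes, and the smallest adjusted p of any gene was 0.795. Slc17a6 aside, the log2 changes ran from -0.11 (Snap25) to 0.08 (Cplx1), and the 95% intervals of these 9 genes reached from -0.37 to 0.27. Slc17a6 differed by 0.20 with an SE of 0.48, so its interval ran from -0.80 to 1.20. The median over the members was -0.05, beside 0.0043 over all genes, with 4 members higher in OVX and 6 lower.

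E2 for 5 weeks, and E2 for 2 weeks after 3 weeks of vehicle, were compared with OVX next. In Prevention against OVX 0 of 10 members passed in limma, where 0.304% of genes did (49 genes); at an unadjusted p under 0.05 there were 0 members and 3006 genes. Slc17a6 aside, changes ran from -0.06 (Snap25) to 0.11 (Vamp2), with intervals between -0.33 and 0.31. The median of the members was 0.03. In Treatment against OVX 0 of 10 passed, where 0% of genes did, and 0 members against 1159 genes had an unadjusted limma p under 0.05. The changes of all 10 members lay between -0.09 (Cplx1) and 0.10 (Syt1), with a median of -0.02. These comparisons share the OVX libraries and are not independent.

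The 2 E2 schedules were then set against each other and against SHAM. In Treatment against Prevention 0 of 10 members passed in limma, where 0% of genes did, and at an unadjusted p under 0.05 there were 1 member and 868 genes. In Prevention against SHAM 0 of 10 passed, where 0.354% of genes did (57 genes), and in Treatment against SHAM 0 of 10 passed, where 0.0062% did (1 gene). Unadjusted p-values under 0.05 were held by 1 member and 2139 genes in the former and by 0 members and 983 genes in the latter. Members split 4 higher to 6 lower, 5 to 5 and 4 to 6 in these comparisons, with medians of -0.08, -0.0062 and -0.03. Apart from Slc17a6, the widest interval bound in any of the 6 comparisons was -0.45, for Snap25 in Prevention against SHAM, so changes larger than that in either direction lie outside the 95% intervals of these 9 genes. For Slc17a6 the bounds ran from -1.51 to 1.66 over the 6 comparisons.

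**Figure D2:**
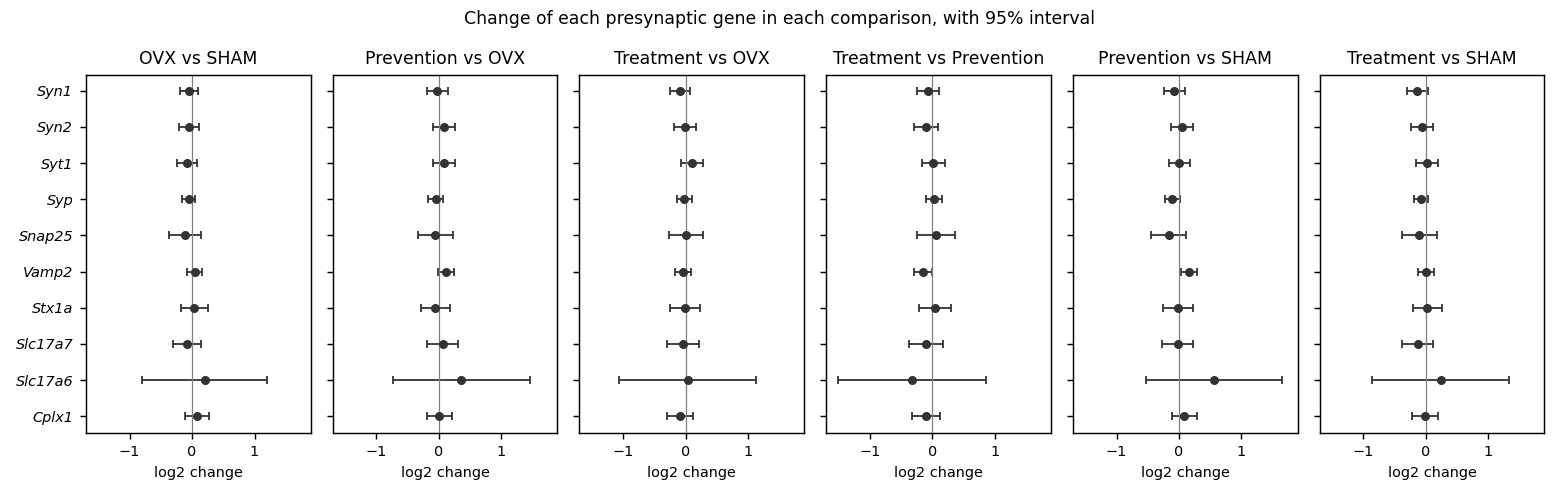
Log2 change (normalised count + 1) of each gene in the 6 comparisons, points with 95% intervals from limma. Intervals of Slc17a6 span more than those of any other member, and of the 60 intervals those of Vamp2 in Treatment against Prevention and in Prevention against SHAM do not reach 0.

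Vamp2 was the member with an unadjusted p under 0.05. It was lower in Treatment than in Prevention by a log2 change of -0.15 (SE 0.07, 95% interval -0.29 to -0.01; limma adjusted p = 0.894). Prevention exceeded SHAM by 0.16 (SE 0.06, 0.03 to 0.28; limma adjusted p = 0.264). Neither passed the adjusted threshold. Without Prevention 2 the values became -0.08 (limma adjusted p = 0.994) and 0.09 (limma adjusted p = 0.597). With the LOC257642 division as a term they were -0.16 (SE 0.09, limma adjusted p = 1) and 0.17 (SE 0.12, limma adjusted p = 0.936). Only Treatment had libraries on both sides of the division, with 2 of its 5 high. The term therefore rests on those 5 libraries and does not separate Prevention from the division.

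The members were next set against the level of thalamic genes in a library. A thalamus score was taken as the mean log2 level of the 10 thalamic genes, none of which is a member. Its coefficient was fitted in limma beside the 4 group means. Shox2 is 1 of the 10 and itself rose by 2.94 per unit, so the score partly repeats the division by Shox2. The coefficient passed in 6 of the 10 members, 1 higher and 5 lower, where 13.3% of all genes passed (6.43% higher, 6.85% lower). Slc17a6 rose by 0.81 log2 units per unit of the score (SE 0.07, limma adjusted p = 9.62e-09), the 67th largest coefficient of the 16119 genes. Slc17a7 fell by 0.16 (SE 0.02, limma adjusted p = 8.49e-05). The vesicle proteins Syn2 (-0.10, limma adjusted p = 0.00119), Syt1 (-0.09, limma adjusted p = 0.00332) and Syn1 (-0.08, limma adjusted p = 0.00829) fell by less. Snap25 fell by 0.12 at a limma adjusted p of 0.0419. Stx1a (-0.09, adjusted p = 0.0826), Vamp2 (-0.05, adjusted p = 0.0966), Cplx1 (0.06, adjusted p = 0.206) and Syp (-0.02, adjusted p = 0.525) did not pass in limma. The median of the members was -0.09, beside 3.42e-05 over all genes.

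**Figure D3:**
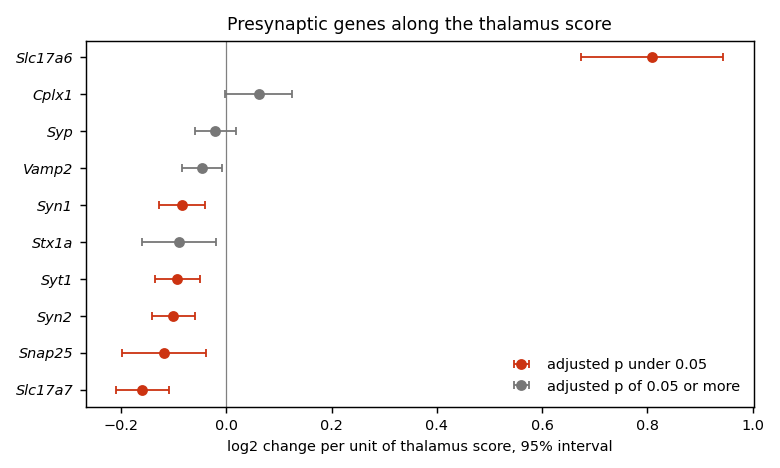
Log2 change of each gene per unit of the thalamus score, with 95% intervals from limma, groups as terms; red marks an adjusted p under 0.05. Slc17a6 lies at 0.81, while Slc17a7 lies lowest at -0.16.

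The calls rest on the 7 libraries with high Shox2: among the other 17, 0 members and 1 gene passed in limma. The score ran only from 6.70 to 7.72 there, against 8.24 to 9.94 in the 7. Among the 6 called members the coefficients in the 17 were 0.19 for Slc17a6, -0.09 for Slc17a7, -0.01 for Syt1 and 0.02 for Syn2, all nearer to 0 than over all libraries. Syn1 was -0.06 there and -0.08 over all libraries, and Snap25 was -0.16 there and -0.12 over all libraries. The limma adjusted p of these 6 lay between 0.95 and 0.993. The Snap25 call was lost in 22 of 35 alternative fits, 14 of them with a single library left out. With quantile normalisation 3 members passed, Slc17a6, Slc17a7 and Syn2, while Syn1 (-0.05), Syt1 (-0.05) and Snap25 (-0.07) did not. The count over all genes with quantile normalisation is not reported here.

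The same libraries can be compared pair by pair inside each group, which uses no slope. Setting each library with high Shox2 against each other library of its group gives 28 pairs: 6 in SHAM, 12 in OVX, 6 in Prevention and 4 in Treatment. Slc17a6 was higher in 28 of 28, as were 0.726% of all genes, and Slc17a7 was lower in 28 of 28, as were 0.409% of all genes. Syn2 was lower in 27 pairs, Syn1 and Syt1 in 25, Vamp2 in 23, Snap25 in 22, and Syp and Stx1a in 21. Cplx1 was higher in 23 of the 28. Each library enters several pairs, so the 28 pairs are not independent. The share of all genes was computed only for 28 of 28, so the lower counts have no share beside them. Over all groups Slc17a6 was 1106 to 4332 in the 7 libraries and 459 to 1081 in the 17. These ranges did not overlap but nearly met, at OVX 4 (1106) and Treatment 7 (1081). The share of all genes without overlap over all groups was not computed. Means of Slc17a6 were 2748 ± 1069 (SD, n = 7) and 745 ± 169 (SD, n = 17). Slc17a7 did overlap, at 47185 to 61782 against 52736 to 76330, with means of 54232 ± 5393 (SD, n = 7) and 69050 ± 6017 (SD, n = 17).

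**Figure D4:**
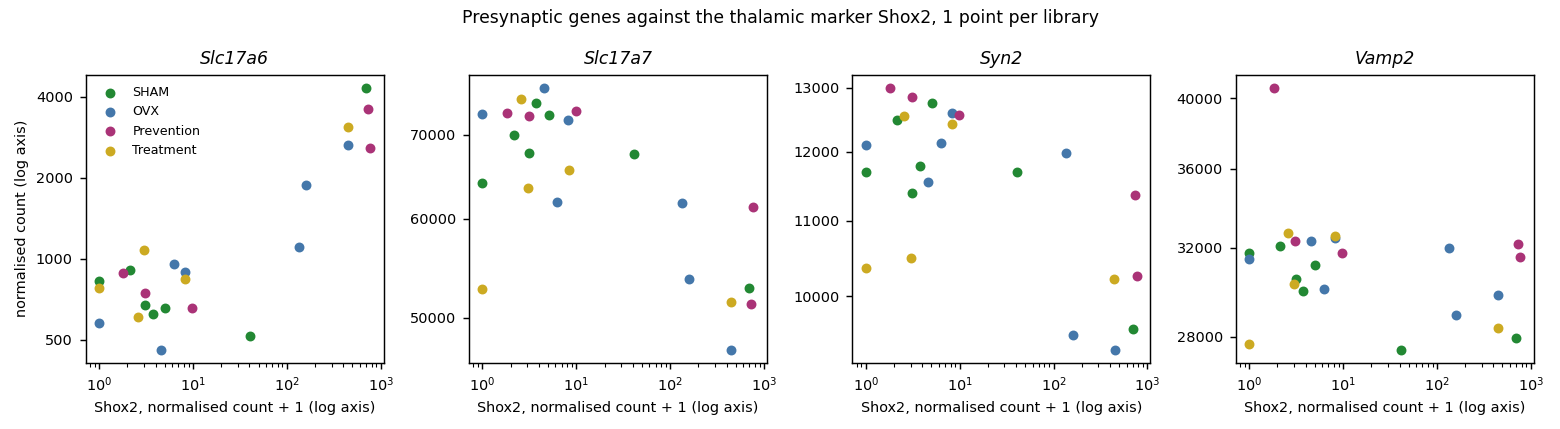
Normalised counts of Slc17a6, Slc17a7, Syn2 and Vamp2 (log axes) against Shox2 (normalised count + 1, log axis), 1 point per library, coloured by group. The 7 libraries at the right carry Slc17a6 of 1106 or more, and all 4 colours occur among them.

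Because Shox2 divides the libraries into separate clusters, no correlation over all 24 is given. Within the 7, log2 Slc17a6 and log2 Shox2 had a Pearson r of 0.876 (exact permutation p = 0.00952, two-sided, adjusted over 20 relations p = 0.19) and a Spearman rho of 0.571 (exact permutation p = 0.2, adjusted p = 0.87), where the smallest p possible was 0.000397. Without the 2 libraries farthest from the median Shox2, r was 0.342 over 5 libraries, so the relation rests on those 2. Within the 17, r was -0.234 (permutation p = 0.37) and rho -0.128 (permutation p = 0.623). None of the 20 relations, 10 members in 2 clusters, passed after adjustment.

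Other tissue markers moved with the score, and their part in the results was not tested beyond the values given here. Of 6 hypothalamic genes, Avp (1.31), Oxt (1.58) and Pmch (1.04) were called higher per unit in limma. Hcrt (0.30) was positive, and Agrp (-0.13) and Pomc (-0.06) were negative, without being called. The list summed to 252 to 14508 in the 7 libraries and 182 to 674 in the others. The list was low in SHAM 5, at 335, where Slc17a6 was highest, at 4332. All 7 tested choroid plexus genes had positive coefficients, 4 of them called. SHAM 5, however, summed to 755 over that list, while SHAM 7 summed to 156109, the highest of any library, with Slc17a6 at 517 and Shox2 at 40.0. With the choroid plexus score as a further term, Slc17a6, Slc17a7, Syn2 and Syn1 passed in limma and Syt1 and Snap25 did not. Of the 10 genes of hippocampal principal cells 3 had positive and 7 negative coefficients. Called were 0 higher and 4 lower: Rgs14, marker of field CA2, Wfs1 and Fibcd1, markers of CA1, and Pou3f1. Of 12 pan-neuronal genes 4 had positive and 8 negative coefficients, with Rbfox3 called lower (-0.10) and Nefh called higher (0.16). That list summed to 206608 to 242174 in the 7 libraries and 206162 to 263698 in the others. Other cell types moved too: all 6 oligodendrocyte genes had positive coefficients, with Mbp called (0.14). Of 7 GABAergic genes 5 had positive coefficients, with Slc32a1 (0.14) and Gad2 (0.10) called. Sst (-0.11) and Lhx6 (-0.03) were negative and not called. Of 6 astrocyte genes 2 had positive and 4 negative coefficients, with Aldh1l1 called higher (0.09) and Slc1a3 lower (-0.07). All 4 tested endothelial genes were positive, with Cldn5 called (0.05). The 4 tested medial habenula genes split 2 to 2: Nwd2 was called lower (-0.14), while Gpr151 (0.21) was positive and not called. Of 6 microglial genes 0 were called. Oligodendrocyte genes summed to 288431 to 464031 in the 7 libraries and 240463 to 416991 in the others, and GABAergic genes to 19973 to 25088 and 16569 to 24562. Estimated reads spanned 29.6 to 52.9 M in the 7 and 26.7 to 54.1 M in the 17.

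With the score as a covariate the group comparisons became more precise for the transporters. The SE of a group difference shrank to 0.37 to 0.38 of its size for Slc17a6 and to 0.59 to 0.61 for Slc17a7. Slc17a6 in Prevention against OVX moved from 0.36 to -0.03 (SE 0.20), and in Prevention against SHAM from 0.56 to -0.01 (SE 0.20). The smallest adjusted p of a member was that of Vamp2, 0.19 higher in Prevention than in SHAM (limma adjusted p = 0.0967). In Prevention against OVX, Vamp2 (0.14, adjusted p = 0.148), Syn2 (0.14, adjusted p = 0.176) and Syt1 (0.13, adjusted p = 0.214) had an unadjusted limma p under 0.05. So did Vamp2 (-0.18, adjusted p = 0.449), Slc17a7 (-0.20, adjusted p = 0.532) and Syn2 (-0.16, adjusted p = 0.539) in Treatment against Prevention by limma, and Syn1 (-0.13, adjusted p = 0.687) in Treatment against SHAM. The number of members that passed was 0 in all 6 comparisons in this fit too. Over all genes, 559 passed in Prevention against OVX, 131 in Prevention against SHAM and 3 in Treatment against Prevention. These are small shares of the tested genes, so a count of 0 does not set the members apart from other genes.

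The other genes of the release pathway were followed in lists of vesicle proteins, SNARE partners, active zone scaffolds, vesicle recycling factors and other vesicular transporters, 75 genes in all, 74 of them tested. In the 6 comparisons 0 of the 74 passed in limma. Their direction was uneven in some: 55 of 74 were lower in OVX than in SHAM (median -0.04), and 50 of 74 were higher in Prevention than in OVX (median 0.07). An unadjusted limma p under 0.05 was held by 11 of the 74 in the former, 14.9% beside 6.25% of all genes, and by 15 in the latter, 20.3% beside 18.6% of all genes. Medians over all genes were 0.0043 and 0.0008. Of the libraries with high Shox2, OVX held 3 of 7, SHAM 1 of 7 and Prevention 2 of 5, and the part of this difference in the counts was not tested. Treatment against OVX had 45 higher (median 0.03), with 9.46% of the list at an unadjusted p under 0.05 beside 7.19% of all genes. Treatment against Prevention had 24 higher (median -0.03), with 2.7% beside 5.38%. Prevention against SHAM had 36 higher (median -0.01), with 6.76% beside 13.3%, and Treatment against SHAM 25 higher (median -0.04), with 2.7% beside 6.1%. These comparisons share groups, so their counts are not independent.

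Among the lowest p-values in these lists were active zone scaffolds. Pclo, which encodes piccolo, was 10852 ± 1069 in SHAM (SD, n = 7), 8768 ± 1921 in OVX (SD, n = 7), 11073 ± 1714 in Prevention (SD, n = 5) and 10328 ± 940 in Treatment (SD, n = 5). Its log2 difference was -0.33 in OVX against SHAM (limma adjusted p = 0.795) and 0.36 in Prevention against OVX (limma adjusted p = 0.136). Rims1, the priming scaffold RIM1, was 8810 ± 766 in OVX (SD, n = 7) and 10950 ± 1134 in Prevention (SD, n = 5). Syt7, a slow calcium sensor, had the smallest adjusted p of the lists: 6834 ± 757 in OVX (SD, n = 7) and 8410 ± 676 in Prevention (SD, n = 5), a difference of 0.30 (limma adjusted p = 0.0675). Syt5 differed the other way by -0.27 (limma adjusted p = 0.0798). None of these passed, and Prevention here again cannot be told apart from the LOC257642 division. Along the thalamus score, Pclo (-0.11, limma adjusted p = 0.0331) and Rims1 (-0.10, limma adjusted p = 0.0183) were called lower. Syt7 (-0.05, limma adjusted p = 0.186) and Syt5 (-0.06, limma adjusted p = 0.0681) were not called. The part of the uneven numbers of libraries with high Shox2 in these group differences was not tested.

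Along the thalamus score 29 of the 74 did pass in limma, 7 higher and 22 lower, beside 6.43% and 6.85% of all genes; the median was -0.04. Active zone genes gave 2 higher and 10 lower of 18. Bsn (bassoon) fell by 0.13, and Erc2 and Ppfia2 fell by 0.14 and 0.15. Unc13c (0.41) and Rims3 (0.50) rose; Rims3 was 865 ± 262 in the 7 libraries with high Shox2 (SD, n = 7) and 372 ± 97.3 in the others (SD, n = 17). SNARE partners gave 0 higher and 5 lower of 16, with the second complexin, Cplx2, at -0.09. Vesicle proteins gave 2 higher and 5 lower of 22: Syt2, the fast calcium sensor of many subcortical and brainstem neurons, rose by 0.36, and Sv2c rose by 0.16. The GABA transporter Slc32a1 (0.14) and the acetylcholine transporter Slc18a3 (0.69) rose among the 4 other vesicular transporters. Recycling factors gave 1 higher (Dnm3) and 2 lower (Dnm1, Synj1) of 14.

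The members also varied with each other inside groups. Because of the clusters, this was read within the 17 libraries with Shox2 under 100, after their group means were taken off. The 28 pairs among the 8 genes other than Slc17a6 and Cplx1 all had a positive Pearson r there, from 0.0032 to 0.872 with a median of 0.523. The 8 are a selected set, since the 2 members left out were those with positive thalamus coefficients. Over the 24 libraries the r of Cplx1 with the 8 ran from -0.19 (Slc17a7) to 0.57 (Syp). Its r with all 8 within the 17 is not given, and no share over other gene pairs was computed. Slc17a6 was below 0 with 3 of the other 9, down to -0.45 with Slc17a7, and at 0.33 with Cplx1. These are descriptions over libraries that share tissue composition and normalisation.

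**Figure D5:**
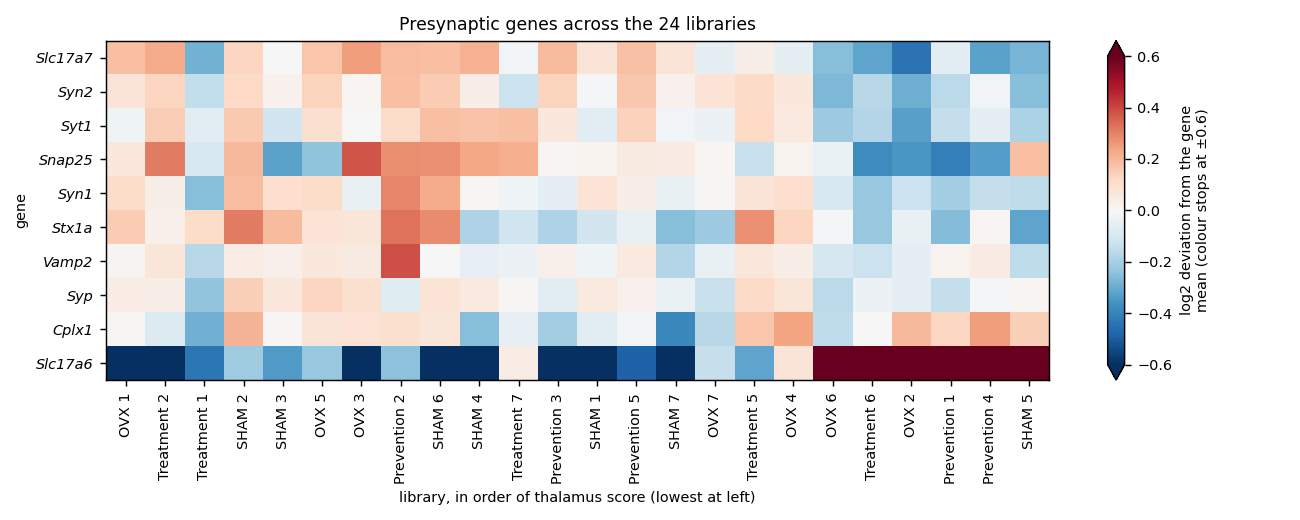
Log2 level of each gene in each of the 24 libraries, as the deviation from the gene's mean over all libraries, with libraries ordered by thalamus score, lowest at the left, and the colour scale ending at ±0.6. The 7 libraries with Shox2 of at least 100 stand at the right and show Slc17a6 above and Slc17a7 below the mean.

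The genes whose pattern over the 24 libraries was most like that of a member, out of 13498 genes with a mean of at least 50, were read from values with the group means taken off. These r span both clusters of libraries, so for Slc17a6, Slc17a7, Syt1 and Syn2 the r within the 17 libraries with Shox2 under 100 is given as well. For the remaining members the r within the 17 was 0.825 (Syn1 with Wsb2) or higher. For Slc17a6 they were Plcb4 (r = 0.982, within the 17 0.812), a phospholipase C abundant in thalamic relay neurons, Inpp5a (0.965, within the 17 0.826) and Cpne9 (0.963, within the 17 0.586). For Slc17a7 they included Rapgefl1 (0.955, within the 17 0.891) and Smpd3 (0.945, within the 17 0.838). Syp was most like Rab3a (0.920), the vesicle GTPase, followed by Pkm (0.901) and Actr1b (0.899). Syt1 was most like Atp6v1a (0.949, within the 17 0.864), a subunit of the proton pump that powers vesicle filling. Next came Cnr1 (0.932, within the 17 0.812) and Serpini1 (0.922, within the 17 0.792). For Snap25 they included Slc6a15 (0.872) and Ubap2l (0.869). Cplx1 was most like Sncb (0.914), Ndrg4 (0.911) and Atp5b (0.889). Syn2 was most like Ap2a2 (0.928, within the 17 0.831), an endocytic adaptor subunit. After it came Apba2 (0.910, within the 17 0.694) and Tnfaip8l3 (0.900, within the 17 0.601). Stx1a was most like Arpp21 (0.886), Golga7b (0.881) and Ephx4 (0.879). For Syn1 the nearest were Wsb2 (0.874), Tspan7 (0.859) and Rtn1 (0.854), and for Vamp2 Rtn1 (0.884), Kcnmb4 (0.868) and Zbtb45 (0.841).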

How the data were processed

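RNA from rat hippocampus was extracted with TRIzol and spin columns with a DNase step, per the labels' protocols. The values deposited are normalised counts (unit: signal), which the authors computed with kallisto 0.43 and DESeq2 (no version named), per the submitters' processing notes; for the build and annotation the status is: not given in the sources used here. Groups and replicate numbers came from the labels. The log2(normalised count + 1) values were fitted with limma 3.58.1 (R 4.3.3) for genes averaging at least 10, with all 24 libraries in 1 fit with a mean per group, a mean-variance trend, 6 comparisons and Benjamini-Hochberg adjustment over 16119 genes at 0.05. The fit was tested on simulated data. The table gives no read counts, so no counting intervals were computed; of its symbols, 77.3% matched the reference. The highest correlation between any 2 libraries was 0.991, and none were merged.

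The members, gene lists and tests were chosen with earlier results of these data known. All members are drawn with their values in every group, while for Syp, Stx1a and Cplx1 the text gives the range over all libraries and some group means. A member's change in a comparison is printed with its adjusted p where the unadjusted p was under 0.05. From the lists of other presynaptic genes, those that passed, or up to 4 per list with the smallest p, could be named, and the text gives some of these. The genes most like a member are the 3 with the highest Pearson r among genes with a symbol (names of the LOC type left out); a few genes that these rules name are not reported here. Same-numbered libraries of different groups did not deviate together (8 of 30 pairs above an r of 0.1, median -0.124), so the numbers were not treated as pairs. The correlation of Slc17a6 with Shox2 had been planned over all libraries; it is given within the 2 clusters instead. The thalamus coefficient, the pairs within groups and the fits and correlations on libraries with Shox2 under 100 were chosen after seeing the data. Promoter sequences are RefSeq's on GRCr8 (9 of 10 members matched). Correlations, promoters and figures used Python 3.11.15, scipy 1.17.1 and matplotlib 3.10.9. Alternatives were other pseudocounts (0.5, 8), other filters, quantile normalisation, separate fits, the replicate block, the library set, tissue scores as covariates and leaving out each library.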

Additional observations from a re-analysis of the deposited data

Results flagged for a closer look

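In 40 sets of gene and group, the highest or lowest library was set against the others by Dixon's ratio at its 95% critical value, and 5 sets held a library standing apart; chance alone marks about 1 in 20. SHAM 5, a library with high Shox2, accounted for 3: Slc17a6 was 4332 there and 904 in the nearest SHAM library, Slc17a7 was 52798 against 64090, and Syn2 was 9597 against 11391. Snap25 in SHAM 3 was 34617, below the nearest value of 43938; Shox2 was 0 in that library. Vamp2 in Prevention 2 was 40653, above the nearest value of 32321; Shox2 was 0.818 there.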

How the results depend on the processing

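The number of members passing was 0 in each of the 220 alternatives run over the 6 group comparisons (36 or 37 per comparison). Their median log2 change ran from -0.143 to 0.185 and changed sign in some. For Prevention against OVX (0.035) it was -0.055 with quantile normalisation and 0.166 with thalamus score and library set together. For Prevention against SHAM (-0.0062) it was 0.185 with thalamus score and library set together. The total of genes passing was 0 in all 37 alternatives for OVX against SHAM and for Treatment against OVX, and it moved elsewhere. For Prevention against OVX (49 genes) it was 97 with a mean of at least 100, 5 with the pair fitted alone, 559 with the thalamus score and 262 with the choroid plexus score as a covariate, and 0 with the library set, with thalamus score and set together, or with only the libraries under 100 Shox2. For Prevention against SHAM (57) these were 88, 156, 131, 128, 0, 0 and 0. Treatment against Prevention (0) gave 2 with a pseudocount of 8 and 3 with the thalamus score; Treatment against SHAM (1) gave 3 with quantile normalisation and 6 fitted alone. With the replicate number as a block, the counts were 3 for Prevention against OVX, 4 for Prevention against SHAM and 0 for Treatment against SHAM. Leaving out each library gave 1 (without Prevention 3) to 481 (without OVX 7) for Prevention against OVX, 10 (without Prevention 2) to 153 (without SHAM 5) for Prevention against SHAM, 0 to 11 (without Treatment 2) for Treatment against Prevention and 1 to 5 (without Prevention 2) for Treatment against SHAM. The cause of these moves was not tested. Along the thalamus score, 2140 genes and 6 members passed: 1515 to 2317 genes and 5 to 7 members with a library left out, 1202 genes with the choroid plexus score, 1159 in the low library set, 3 members with quantile normalisation, and 1 gene and 0 members with only the 17 libraries under 100 Shox2, where Syn2 turned to 0.0158. For Slc17a6 and Shox2, r was 0.770 (without OVX 4) to 0.948 with a library left out, 0.342 without the 2 farthest and -0.234 within the 17. Fits within a library set could not be made for Prevention against OVX or SHAM, and the correlation of Slc17a6 with Shox2 was not run within library sets or after removing group means. Depth is known only as an estimate.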
